A study of Mus musculus with 8 samples.

Results

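The heat shock proteins and J-domain chaperones comprised 74 of the 23413 gene symbols in the expression table. They were taken by symbol alone, as every gene whose name starts with Hspa (13 genes), Hspb (10), Hsp90 (3), Hspd, Hspe or Hsph (1 each), Dnaja (4), Dnajb (13) or Dnajc (28). Of these, 61 reached 10 normalised counts in at least 2 libraries and entered the tests, and 13 did not. The prefix Hspb also takes in Hspbp1, which encodes a nucleotide exchange factor of Hsp70, and Hspbap1, whose product binds Hspb1. Neither is a small heat shock protein.

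RNA was sequenced from 8 mouse libraries: wild-type microglia (n = 2), repopulating microglia (n = 3) and cells labelled bone-marrow macrophages (n = 3). Microglia are the macrophages that reside in the brain, and the series asks about interleukin-1, an inflammatory cytokine, in their renewal. The strain label read DTR for wild-type microglia and DTRmg for the other groups, so strain and group cannot be told apart in either comparison with wild-type microglia. Neither strain name is spelled out in the labels, which also name no promoter or animal. The protocol text on all 8 samples gives subcutaneous tamoxifen (2 mg) on days 12 and 14 after birth, and 500 ng diphtheria toxin into the abdomen 3 times to deplete microglia. It goes on to papain digestion of the brain, a Percoll gradient and cell sorting. The source of the bone-marrow macrophages, marrow or brain, is not stated, and their columns, named mono, were assigned by exclusion. No label says that replicates are separate animals, so the p-values measure the spread between these libraries only, which may be technical.

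Heat shock proteins are molecular chaperones, which bind unfolded stretches of other proteins and help them fold, refold or be broken down. Hsp70 proteins, encoded by Hspa genes, hold and release clients in a cycle driven by ATP. J-domain proteins, encoded by Dnaj genes, bring clients to Hsp70 and start ATP hydrolysis, and exchange factors such as Hsph1 and Hspa4 reset the cycle. Hsp90 proteins finish the folding of kinases, receptors and other clients, small heat shock proteins hold unfolded proteins without ATP, and Hspd1 with Hspe1 forms the chaperonin of mitochondria. Heat and misfolded protein activate the transcription factor Hsf1, which binds heat shock elements at genes such as Hspa1a and Dnajb1. Unfolded protein in the endoplasmic reticulum switches on Hspa5, Hsp90b1 and Dnajb9 through other factors. Heat-inducible chaperone genes and immediate-early genes are also known to respond when cells are released from brain tissue with enzymes. The part of such handling in these values was not tested.

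Libraries held 5918944 to 12476427 reads. Repopulating replicate 3 stood apart from the other repopulating libraries, with a correlation across 11415 genes of 0.938 and 0.918 with replicates 1 and 2, against 0.979 between those. The 13 microglia markers were each detected in every library and summed to 557304 and 592855 normalised counts in wild-type, 380691 to 450122 in repopulating and 139345 to 151437 in bone-marrow libraries. Monocyte and recruited macrophage markers summed to 49471 to 61248 in bone-marrow libraries, above the 17967 and 21660 of wild type and the 4145 to 21443 of repopulating cells. The list was mixed: of its 13 genes, 6 were higher and 2, Ly6c2 and Plac8, lower in bone-marrow macrophages than in wild type. Of all tested genes, 21.3% were higher and 22.2% lower there. Neutrophil markers (12 tested) summed to 28500 and 30351 in wild-type libraries and 1484 to 5653 in the other 6. Endothelial and pericyte markers (9) summed to 484 and 804 in wild-type, 254 to 555 in repopulating and 75.6 to 85.5 in bone-marrow libraries, where Rgs5 was at 0 in replicates 2 and 3. T, B and natural killer cell markers (14) summed to 863 and 472 in wild-type, 117 to 222 in repopulating and 186 to 253 in bone-marrow libraries. Of the 9 tested, 2 (Cd79a and Cd4) were higher and 3 lower in bone-marrow macrophages than in wild type, beside the shares of all genes just given. Astrocyte markers (8) summed to 1189 and 6541 in wild-type, 286 to 2261 in repopulating and 113 to 167 in bone-marrow libraries, most of it from Slc1a3 in each of the 5 microglial libraries. Oligodendrocyte markers (8) summed to 1132 to 1616 over the 8 libraries. Neuron and erythroid markers stayed at or below 49.8 and 10.4 normalised counts in every library. The part of these markers in the chaperone values was not tested. In bulk samples such as these, fewer cells of a type and less RNA per cell cannot be told apart.

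More chaperone genes passed the test between bone-marrow macrophages and wild-type microglia than between the microglial groups, and the same was true of all genes. In bone-marrow macrophages 14 of the 61 tested genes were higher and 17 lower than in wild-type microglia, 50.8% in all, where 43.5% of all 11415 tested genes passed (21.3% higher and 22.2% lower). Hsp90 genes, mitochondrial Hsp70 and several nuclear or ribosome-linked J-domain genes were among the higher, and the small heat shock protein gene Hspb3, the heat-inducible Dnajb1 and 4 other Dnajb genes among the lower. Repopulating microglia differed from bone-marrow macrophages in 20 genes, 10 in each direction (32.8%, against 30.9% of all genes, 16.0% higher and 14.9% lower). Between repopulating and wild-type microglia 5 genes passed, of which 4 were higher and 1 lower (8.20%, against 8.61% of all genes, 4.86% higher and 3.75% lower). The 3 comparisons share their libraries pairwise and are not independent of each other.

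These shares lay near those of all genes, and so did the medians. The median log2 difference of the tested members was 0.03 between repopulating and wild-type microglia (-0.02 over all tested genes), -0.02 in bone-marrow macrophages relative to wild type (-0.01) and 0.11 in repopulating microglia relative to bone-marrow macrophages (0.00). Groups did not overlap for 24 members in the first comparison, 51 in the second and 30 in the last, or 39.3%, 83.6% and 49.2% of those tested. Over all tested genes these shares were 40.4%, 75.8% and 46.0%. Scaling libraries to equal totals moved the median of all genes to -0.12, 0.13 and -0.25 in the same order. It also turned the split of calls from 4 higher and 1 lower to 1 and 2, from 14 and 17 to 20 and 14, and from 10 and 10 to 8 and 14.

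The calls against wild-type microglia rest on 2 control libraries. For bone-marrow macrophages 18 of the 31 calls held under all 23 alternatives or all that gave a value, and 18 calls were left when either wild-type library was removed. None of the 5 calls between repopulating and wild-type microglia held throughout. Without wild-type replicate 1 limma called 0 members (6 at an unadjusted p under 0.05), and without wild-type replicate 2, repopulating replicate 1 or any bone-marrow library it called Dnajc13 alone. Without repopulating replicate 3 it called 18, of which 13 were higher and 5 lower. The calls over all genes shifted too: 26.2% of all tested genes passed in that fit, against 8.61% with all 8 libraries. Without repopulating replicate 1 or any 1 bone-marrow library, 4.11% to 4.62% of all tested genes passed. Of the 20 calls between repopulating microglia and bone-marrow macrophages 7 held throughout, and 9, 9 and 10 calls were left without bone-marrow replicates 1, 2 and 3. Of all tested genes 19.4%, 21.6% and 20.4% passed in those 3 fits, against 30.9% with all 8 libraries.

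**Figure D1:**
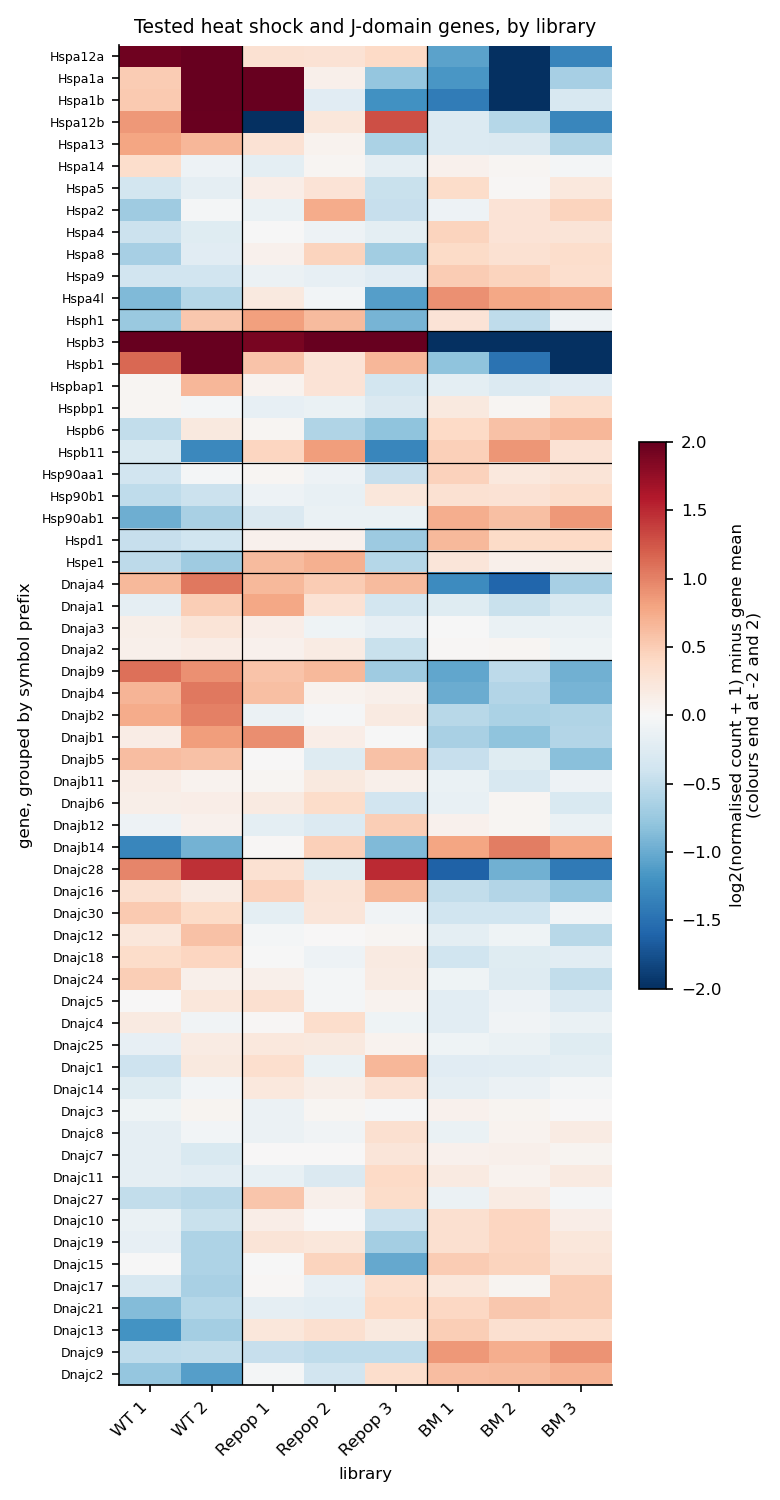
Levels of the 61 tested genes (rows, grouped by symbol prefix) in the 8 libraries (columns), as log2(normalised count + 1) minus the gene's mean, with colours ending at -2 and 2. Hspb3, Hspa12a and Dnajb1, Dnajb2, Dnajb4, Dnajb5 and Dnajb9 are blue in the 3 bone-marrow libraries (BM) and red in the wild-type libraries (WT), Hsp90ab1, Dnajc9 and Dnajc2 show the opposite, and Hspa1a and Hspa1b are red in wild-type replicate 2 and repopulating replicate 1 (Repop 1).

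Per kilobase of exon, the constitutive cytosolic Hsp70 gene Hspa8 had the highest level of the family. Its mean over the 3 groups was 3742 normalised counts per kilobase, followed by the cytosolic Hsp90 gene Hsp90ab1 at 2193, the endoplasmic reticulum Hsp70 gene Hspa5 at 2008 and its Hsp90 partner Hsp90b1 at 1371. The mitochondrial pair Hspe1 and Hspd1 followed at 691 and 443 per kilobase and the stress-inducible Hsp90aa1 at 353. The order differed between groups: in bone-marrow macrophages Hsp90ab1 lay at 3509 and Hspa5 at 2316 per kilobase, and in wild-type microglia Hsp90ab1 lay at 1208 and Hspa5 at 1668. All 74 genes together took 0.928% to 1.03% of reads in the bone-marrow libraries, 0.604% to 0.764% in the repopulating libraries and 0.553% and 0.686% in the wild-type libraries. The bone-marrow libraries stood above all 5 microglial ones in this share. In normalised counts the 74 genes summed to 67442 to 72713 in bone-marrow, 48286 to 66742 in repopulating and 45094 and 53030 in wild-type libraries. On that scale the 3 Hsp90 genes were higher in bone-marrow than in all 5 microglial libraries (18039 to 20319 against 8219 to 13325). The 45 Dnaj genes were lower (13192 to 13666 against 13945 to 16430), and the sums of the 13 Hspa genes overlapped.

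**Figure D2:**
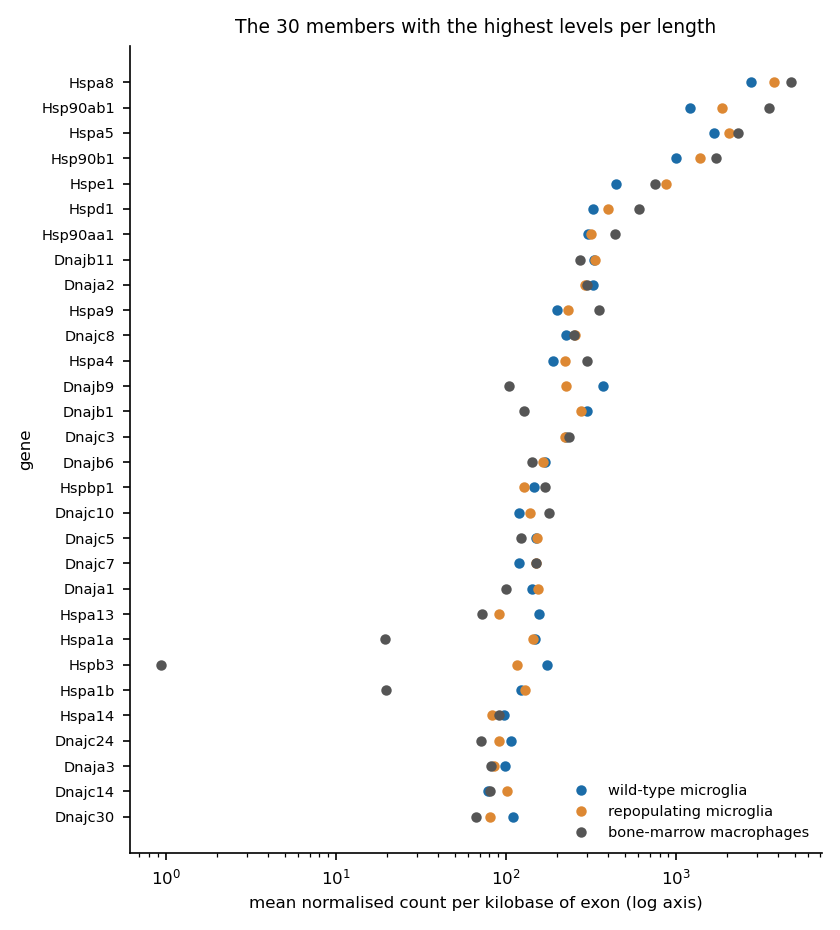
The 30 genes of the family with the highest levels per length, as mean normalised count per kilobase of exon (log axis), with 1 point per group. Hspa8 is at the top of all groups, and Hspb3 has its bone-marrow point far to the left of the others, at 0.938 per kilobase against 174 and 116.

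All 3 tested Hsp90 genes were higher in bone-marrow macrophages than in wild-type microglia, as 21.3% of all tested genes were. Hsp90ab1 (chr17:45567775-45573271, GRCm38), the constitutive cytosolic form, read 3217 and 4028 normalised counts in wild-type microglia, 5184, 5788 and 5774 in repopulating microglia and 10429, 9623 and 11517 in bone-marrow macrophages. The 3 groups did not overlap, with repopulating cells between the other two. It was 2.91-fold higher in bone-marrow macrophages than in wild-type microglia (log2 1.54 ± 0.15 SE, adjusted p 0.000113) and 1.88-fold lower in repopulating microglia than in bone-marrow macrophages (log2 -0.91 ± 0.14 SE, adjusted p 0.00125), and both calls held in every alternative. Repopulating microglia exceeded wild type by 1.55-fold (log2 0.63 ± 0.15 SE, adjusted p 0.0391). That call was lost without any 1 of the 3 bone-marrow, 2 wild-type or first 2 repopulating libraries (adjusted p 0.0665 to 0.31), and in 6 further alternatives, equal totals and quantile normalisation among them.

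Hsp90aa1 (chr12:110690605-110702728), the inducible cytosolic form, moved less. It read 1061 and 1338 normalised counts in wild-type, 1415, 1287 and 1008 in repopulating and 1908, 1605 and 1653 in bone-marrow libraries, so that the bone-marrow group lay above both microglial groups, which overlapped. The differences were 0.53 ± 0.18 (log2, SE) for bone-marrow macrophages against wild type (adjusted p 0.0418), 0.04 ± 0.18 for repopulating against wild type (adjusted p 0.911) and -0.49 ± 0.16 in repopulating microglia relative to bone-marrow macrophages (adjusted p 0.0479). Neither call is firm. The first was lost without any 1 of the bone-marrow or wild-type libraries (adjusted p 0.0583 to 0.276), and the second without any of these or repopulating replicate 2 (0.0592 to 0.175).

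Hspa8 (chr9:40800984-40810087), the constitutive Hsp70 that also strips clathrin from vesicles, read 10064 and 13643 normalised counts in wild-type, 16949, 21669 and 9865 in repopulating and 20689, 19758 and 20357 in bone-marrow libraries. Bone-marrow and wild-type groups did not overlap, and repopulating replicate 3 lay below both wild-type libraries while replicates 1 and 2 lay above them. No comparison passed for Hspa8: the log2 differences were 0.79 ± 0.30 (SE) for bone-marrow macrophages against wild type (adjusted p 0.061), 0.39 ± 0.30 for repopulating against wild type (adjusted p 0.436) and -0.40 ± 0.27 in repopulating microglia relative to bone-marrow macrophages (adjusted p 0.299). Without repopulating replicate 3 the first passed (adjusted p 0.000532) and so did the second, at a log2 difference of 0.71 (adjusted p 0.00665).

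The exchange factor genes Hspa4 and Hspa4l were higher in bone-marrow macrophages, as were the Hsp90 genes. Hspa4 (chr11:53259814-53300457) read 973 and 1107 normalised counts in wild-type, 1303, 1231 and 1143 in repopulating and 1789, 1595 and 1579 in bone-marrow libraries. Its groups did not overlap in any comparison. The gene was 1.59-fold higher in bone-marrow macrophages than in wild type (log2 0.67 ± 0.13 SE, adjusted p 0.00368) under every alternative. It was 1.35-fold lower in repopulating microglia than in bone-marrow macrophages (log2 -0.43 ± 0.12 SE, adjusted p 0.0218), a call lost without any 1 of the bone-marrow libraries (adjusted p 0.0534 to 0.108). Its relative Hspa4l (chr3:40744495-40796103) read 26.7 and 33.6 in wild-type, 57.6, 48.7 and 23.0 in repopulating and 96.0, 87.0 and 83.8 in bone-marrow libraries, 2.90-fold higher in the last than in wild type (log2 1.54 ± 0.37 SE, adjusted p 0.00985) and 2.18-fold lower in repopulating microglia than in bone-marrow macrophages (log2 -1.12 ± 0.33 SE, adjusted p 0.0306). Removal of wild-type replicate 1 ended the first call on Hspa4l (adjusted p 0.0759), and removal of any bone-marrow library the second (0.0806 to 0.106). Hsph1, the third exchange factor of this family, is described with the heat-inducible genes.

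**Figure D3:**
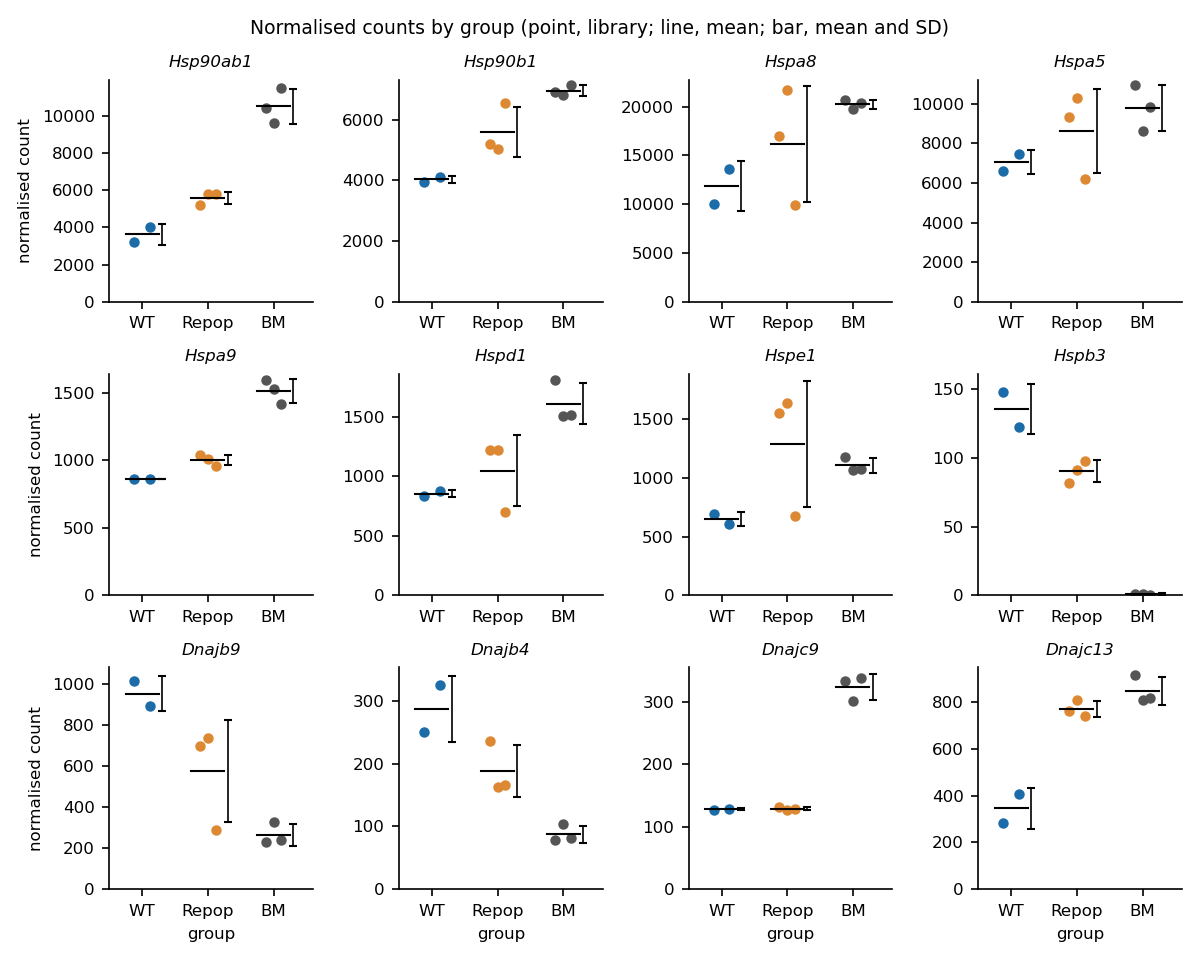
Normalised counts of 12 genes by group (points, libraries; lines, means; bars, mean and SD; WT, wild-type microglia, n = 2; Repop, repopulating microglia, n = 3; BM, bone-marrow macrophages, n = 3). Hsp90ab1 and Hspa9 step up from WT to Repop to BM without overlap, Dnajc9 differs in BM alone, Dnajc13 is low in WT alone, and 1 Repop point, replicate 3, lies below the other 2 for Hspa8, Hspa5, Hspd1, Hspe1 and Dnajb9.

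The most variable members were the heat-inducible Hsp70 genes Hspa1a (chr17:34969190-34972156, minus strand) and Hspa1b (chr17:34956436-34959238, minus strand), neighbouring copies that encode nearly the same protein. Because reads of such copies can be split between them, their sum is also given. RefSeq promoter windows of GRCm38.p6, which run from 250 bases before to 50 bases after a transcript start, show how alike the copies are upstream. Of the 250 bases before the start 247 are identical (98.8%). The printed 100 bases, -130 to -31 from the start on the minus strand, are chr17:34972187-34972286 for Hspa1a and chr17:34959269-34959368 for Hspa1b, shown because they hold the only match in these windows to the 2-unit heat shock motif searched, in capitals at -104 to -97.
Hspa1a: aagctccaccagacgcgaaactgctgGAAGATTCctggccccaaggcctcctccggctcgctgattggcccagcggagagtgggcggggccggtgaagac
Hspa1b: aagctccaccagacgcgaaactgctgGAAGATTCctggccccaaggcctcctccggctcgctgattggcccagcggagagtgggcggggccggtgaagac
The motif searched was GAANNTTC, which is its own reverse complement and was found in 7.86% of all 32851 windows and in 16 of the 77 windows of the 60 members with an entry. The other order of 2 units, TTCNNGAA, was not searched on its own. A match describes the letters and is not a measured binding site.

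Summed, Hspa1a and Hspa1b read 381 and 1188 normalised counts in wild-type, 1974, 260 and 137 in repopulating and 110, 39.2 and 189 in bone-marrow libraries. Wild-type replicate 2 and repopulating replicate 1 were high, and the repopulating group ran across the whole range of the wild-type group. Within the repopulating group the highest library exceeded the lowest 12.2-fold for Hspa1a and 18.1-fold for Hspa1b, and only 1.05% and 0.447% of tested genes had an SD there (log2 scale) as large or larger. Hspa1a read 207 and 670.0 in wild-type, 1038, 156 and 85.2 in repopulating and 64.2, 17.0 and 91.7 in bone-marrow libraries, and Hspa1b read 174 and 518, then 936, 103 and 51.8, then 45.5, 22.3 and 97.0.

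Hspa1a passed the test as 7.84-fold lower in bone-marrow macrophages than in wild-type microglia (log2 -2.97 ± 1.06 SE, adjusted p 0.0486), with groups that did not overlap. Removal of any wild-type or bone-marrow library or of repopulating replicate 2 ended this call (adjusted p 0.0517 to 0.276), as did 8 further alternatives. Hspa1b stayed short of the threshold there (log2 -2.67 ± 1.11 SE, adjusted p 0.0814). Between repopulating and wild-type microglia the log2 differences were -0.63 ± 1.06 for Hspa1a (adjusted p 0.735) and -0.80 ± 1.11 for Hspa1b (adjusted p 0.676), and both changed sign without repopulating replicate 3. Against bone-marrow macrophages, repopulating microglia showed log2 differences of 2.34 ± 0.95 for Hspa1a (adjusted p 0.0941) and 1.87 ± 0.995 for Hspa1b (adjusted p 0.191).

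Dnajb1 (chr8:83608193-83612653), the J-domain partner of Hspa1a that is induced with it, read 732 and 1179 normalised counts in wild-type, 1258, 726 and 655 in repopulating and 418, 375 and 441 in bone-marrow libraries. As for Hspa1a, wild-type replicate 2 and repopulating replicate 1 were the highest libraries, but all 5 microglial libraries lay above all 3 bone-marrow libraries. Dnajb1 was 2.26-fold lower in bone-marrow macrophages than in wild type (log2 -1.18 ± 0.29 SE, adjusted p 0.0119) and 2.05-fold higher in repopulating microglia than in bone-marrow macrophages (log2 1.04 ± 0.26 SE, adjusted p 0.0169). The first call was lost without wild-type replicate 2 (adjusted p 0.115) and the second without bone-marrow replicate 1 or 2 (0.0539 and 0.0646). Repopulating and wild-type groups overlapped (log2 -0.14 ± 0.29 SE, adjusted p 0.79).

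Hsph1 (chr5:149614287-149636376), an inducible exchange factor, read 123 and 299.9 normalised counts in wild-type, 363, 320.3 and 107 in repopulating and 249, 144 and 190.5 in bone-marrow libraries. All groups overlapped, and no comparison passed: the log2 differences were -0.02 ± 0.55 (SE) for bone-marrow macrophages against wild type (adjusted p 0.984), 0.27 ± 0.55 for repopulating against wild type (adjusted p 0.783) and 0.29 ± 0.49 in repopulating microglia relative to bone-marrow macrophages (adjusted p 0.699). Dnaja1 (chr4:40722150-40737149), a J-domain protein of the cytosol that is also heat-inducible, read 953 and 1514, then 1853, 1325 and 839.7, then 909, 791 and 873 in the same order. The bone-marrow group of Dnaja1 lay below the wild-type group and overlapped the repopulating group. Its log2 differences were -0.49 ± 0.31 (adjusted p 0.23), 0.08 ± 0.31 (adjusted p 0.887) and 0.57 ± 0.28 (adjusted p 0.157).

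Of the 9 tested genes in a list of heat shock factors and genes linked to Hsf1, 1 passed in each comparison. Of all tested genes 8.61% passed between repopulating and wild-type microglia. The share was 43.5% between bone-marrow macrophages and wild type, and 30.9% between repopulating microglia and bone-marrow macrophages. Hsf2, a relative of Hsf1, read 104.7 and 97.6 normalised counts in wild-type and 58.6, 59.0 and 41.5 in repopulating microglia, and was lower in the latter (log2 -0.94 ± 0.23 SE, adjusted p 0.0427). That call was lost without any bone-marrow or wild-type library or repopulating replicate 1 (0.0726 to 0.26). Cryab, a small heat shock protein gene that falls outside the symbols taken here, read 29.9 and 38.6 in wild-type, 46.3, 28.0 and 50.7 in repopulating and 13.6, 11.7 and 5.29 in bone-marrow libraries. It was lower in bone-marrow macrophages than in wild type (log2 -1.73 ± 0.44 SE, adjusted p 0.0126), a call lost without either wild-type library (0.0507 and 0.0908), and higher in repopulating microglia than in bone-marrow macrophages (log2 1.98 ± 0.39 SE, adjusted p 0.00541). No other gene of this list, Hsf1 included, passed in any comparison.

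Immediate-early genes, which cells switch on within minutes of a stimulus, summed over 30 genes to 119424 and 166848 normalised counts in wild-type, 156153, 141687 and 204312 in repopulating and 32137, 45928 and 51141 in bone-marrow libraries. Of the 28 tested, 20 were lower and 0 higher in bone-marrow macrophages than in wild type (22.2% and 21.3% of all tested genes), 22 were higher and 1 lower in repopulating microglia than in bone-marrow macrophages (16.0% and 14.9%), and 6 were higher and 1 lower in repopulating than in wild-type microglia (4.86% and 3.75%). Repopulating replicate 3 had the highest sum of immediate-early genes and the lowest Hspa1a and Hspa1b of its group. Their part in the chaperone values was not tested.

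**Figure D4:**
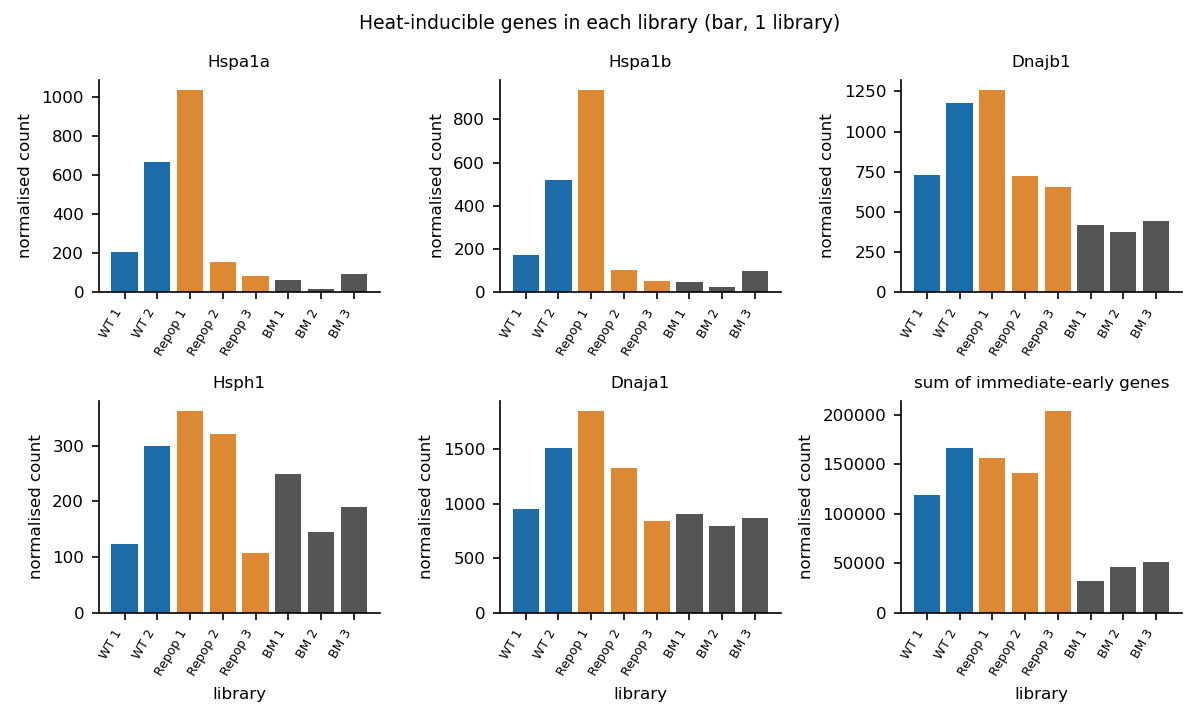
Normalised counts of the heat-inducible genes Hspa1a, Hspa1b, Dnajb1, Hsph1 and Dnaja1 and the sum of 30 immediate-early genes in each library (1 bar per library, axes from 0). Wild-type replicate 2 (WT 2) and repopulating replicate 1 (Repop 1) are the highest bars for Hspa1a, Hspa1b, Dnajb1 and Dnaja1, while the immediate-early sum peaks in Repop 3.

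In the endoplasmic reticulum Hsp90b1 was higher in bone-marrow macrophages than in wild-type microglia, and the J-domain gene Dnajb9 and the Hsp70 gene Hspa13 were lower. Hspa5 (also called BiP), Hsp90b1 and Dnajc3, an Hspa5 partner that also restrains the stress kinase Perk, were the members whose windows hold the endoplasmic reticulum stress element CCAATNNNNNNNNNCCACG, on either strand. It occurs in 0.119% of all 32851 windows. The stretches below, in RefSeq's GRCm38.p6 and read along each gene's strand, show it in capitals: chr2:34772020-34772049 (plus) for Hspa5, chr10:86705525-86705664 (minus) for Hsp90b1, where it occurs once on each strand, and chr14:118937812-118937861 (plus) for Dnajc3.
Hspa5: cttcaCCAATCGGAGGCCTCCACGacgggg
Hsp90b1: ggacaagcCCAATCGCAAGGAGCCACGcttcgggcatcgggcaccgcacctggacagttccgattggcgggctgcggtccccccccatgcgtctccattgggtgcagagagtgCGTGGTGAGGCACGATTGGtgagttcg
Dnajc3: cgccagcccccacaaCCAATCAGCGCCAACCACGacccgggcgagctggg
Of these 3 genes, Hsp90b1 alone passed a test with all 8 libraries, and Hspa5 passed without repopulating replicate 3, as given below. The genes were not tested against each other, and the part of the element in their values was not tested.

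Hsp90b1 (chr10:86690209-86705509) read 3941 and 4119.9 normalised counts in wild-type, 5211, 5033 and 6543 in repopulating and 6912, 6812 and 7148 in bone-marrow libraries, 3 groups without overlap. It was 1.73-fold higher in bone-marrow macrophages than in wild type under every alternative (log2 0.79 ± 0.15 SE, adjusted p 0.00302). Repopulating microglia lay between, 0.46 ± 0.15 (log2, SE) from wild type (adjusted p 0.0865) and -0.32 ± 0.13 from bone-marrow macrophages (adjusted p 0.0942). Without repopulating replicate 3 both passed, at log2 differences of 0.35 (adjusted p 0.028) and -0.44 (adjusted p 0.00221).

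Hspa5 (chr2:34771970-34777547) read 6623 and 7485 normalised counts in wild-type, 9351, 10316 and 6217 in repopulating and 10953, 8613 and 9822 in bone-marrow libraries. Repopulating replicate 3 lay below both wild-type libraries and the other repopulating libraries above them. The log2 differences were 0.47 ± 0.22 (SE) for bone-marrow macrophages against wild type (adjusted p 0.119), 0.26 ± 0.22 for repopulating against wild type (adjusted p 0.487) and -0.21 ± 0.20 in repopulating microglia relative to bone-marrow macrophages (adjusted p 0.471). Without repopulating replicate 3 the first 2 passed (adjusted p 0.00526 and 0.0206). Dnajc3 (chr14:118937976-118981697) was among the steadiest members, with 1102 and 1215, then 1075, 1203 and 1156, then 1239, 1212 and 1177 in the same order. Its log2 differences were 0.06 ± 0.12 (adjusted p 0.683), -0.02 ± 0.12 (adjusted p 0.944) and -0.08 ± 0.11 (adjusted p 0.607).

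Dnajb9 (chr12:44205559-44210326), a J-domain partner of Hspa5 that is induced by the unfolded protein response, went the other way. It read 1013 and 891 normalised counts in wild-type, 696, 736 and 287 in repopulating and 229.6, 327 and 239.9 in bone-marrow libraries. Wild-type libraries lay above all others, and repopulating replicate 3 fell within the bone-marrow range. Dnajb9 was 3.62-fold lower in bone-marrow macrophages than in wild type under every alternative (log2 -1.85 ± 0.37 SE, adjusted p 0.00449). It was 2.01-fold higher in repopulating microglia than in bone-marrow macrophages (log2 1.01 ± 0.33 SE, adjusted p 0.0491), a call lost without any 1 library other than repopulating replicate 3 (adjusted p 0.0681 to 0.157). The difference between repopulating and wild-type microglia did not pass (log2 -0.85 ± 0.37 SE, adjusted p 0.191).

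Hspa13 (chr16:75745431-75767104), an Hsp70 of microsomes, read 1106 and 1019.8 normalised counts in wild-type, 782, 672 and 415 in repopulating and 530.2, 525 and 424 in bone-marrow libraries. Wild-type libraries were highest again, and the bone-marrow group was 2.16-fold lower (log2 -1.11 ± 0.25 SE, adjusted p 0.00749), a call lost without wild-type replicate 1 (adjusted p 0.0599). Dnajc10, a J-domain protein of the endoplasmic reticulum that reduces disulphide bonds, read 661 and 531, then 797, 728 and 540.2, then 912, 975 and 795, and was higher in bone-marrow macrophages than in wild type (log2 0.59 ± 0.19 SE, adjusted p 0.0372). Removal of any bone-marrow or wild-type library ended the call on Dnajc10 (adjusted p 0.0525 to 0.234). Dnajb11, a further Hspa5 partner, read 799 to 1145 in all 8 libraries and passed in no comparison.

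Among 33 tested genes of endoplasmic reticulum folding and the unfolded protein response that are not members, 9 were lower and 2 higher in bone-marrow macrophages than in wild-type microglia, where 22.2% of all tested genes were lower and 21.3% higher. Derl1, part of the channel for export of misfolded proteins, read 4444 and 3788 normalised counts in wild-type and 1543, 1577 and 1441 in bone-marrow libraries (log2 -1.43 ± 0.16 SE, adjusted p 0.000199), and its relative Derl2 (log2 -1.06 ± 0.20 SE, adjusted p 0.00314) and the stress-induced Herpud1 (log2 -0.93 ± 0.18 SE, adjusted p 0.00329) were lower too. The sensor gene Atf6 was higher (log2 1.09 ± 0.14 SE, adjusted p 0.000428). It was also the 1 gene of the list to pass between repopulating and wild-type microglia, at 953.9, 928.3 and 1037 against 553.5 and 626.3 normalised counts (log2 0.72 ± 0.14 SE, adjusted p 0.0179), a call lost without either wild-type library (0.087 and 0.181). Between repopulating microglia and bone-marrow macrophages 7 genes were higher, Derl1 and Herpud1 among them, and 1 lower, beside 16.0% and 14.9% of all genes. The median log2 difference of the list was -0.02, -0.17 and 0.20 for repopulating against wild type, bone-marrow macrophages against wild type and repopulating microglia against bone-marrow macrophages.

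Of the mitochondrial chaperones, Hspa9 and Hspd1 were higher in bone-marrow macrophages than in wild-type microglia. For Hspa9, the mitochondrial Hsp70 that draws proteins through the import channel, the wild-type libraries read 863 and 863 normalised counts, the repopulating libraries 1038, 1008 and 961 and the bone-marrow libraries 1597, 1533 and 1421, 3 groups without overlap. It was 1.75-fold higher in bone-marrow macrophages than in wild type (log2 0.81 ± 0.12 SE, adjusted p 0.000841) and 1.51-fold lower in repopulating microglia than in bone-marrow macrophages (log2 -0.60 ± 0.10 SE, adjusted p 0.00287), under every alternative. Repopulating and wild-type microglia did not pass.

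Hspd1 and Hspe1, which encode the barrel and the lid of the mitochondrial chaperonin, lie head to head on chromosome 1 and start within the same stretch of DNA. Hspd1 spans chr1:55077835-55088243 on the minus strand and Hspe1 chr1:55088132-55091307 on the plus strand, so that their exons overlap and unstranded reads there belong to either. The 30 bases chr1:55088053-55088082, 95 to 66 bases before the start of Hspe1 and inside an exon of Hspd1, are shown because both genes' windows hold a heat shock element of 3 units there (RefSeq, GRCm38.p6, plus strand, matched units in capitals).
Hspe1 and Hspd1: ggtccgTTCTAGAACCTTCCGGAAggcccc
The motif searched was GAANNTTCNNGAA or its reverse complement TTCNNGAANNTTC, which contains the 2-unit motif GAANNTTC and occurs in 0.603% of all windows. Among members the windows of Dnajb6, Hspd1, Hspe1 and Hsph1 hold it, 6 of 77.

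The values of Hspd1 and Hspe1 were alike in part, and the role of the shared start was not tested. Hspd1 read 837 and 873 normalised counts in wild-type, 1224, 1219 and 700.3 in repopulating and 1807, 1509 and 1518 in bone-marrow libraries, and Hspe1 read 692 and 612, then 1557, 1644 and 674, then 1183, 1068 and 1080.2. Both genes were low in repopulating replicate 3, which lay below the wild-type libraries for Hspd1 and between them for Hspe1. In the other 2 repopulating libraries Hspe1 was above, and Hspd1 below, all bone-marrow libraries.

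Hspd1 was 1.88-fold higher in bone-marrow macrophages than in wild type (log2 0.91 ± 0.24 SE, adjusted p 0.0146) and 1.58-fold lower in repopulating microglia than in bone-marrow macrophages (log2 -0.66 ± 0.21 SE, adjusted p 0.044). Removal of bone-marrow replicate 1 or either wild-type library ended the first call (adjusted p 0.0528 to 0.088), and removal of any of those 2 groups' libraries the second (0.0708 to 0.152). Hspe1 passed in no comparison (log2 0.77 ± 0.34 SE, adjusted p 0.0943 for bone-marrow macrophages against wild type, and 0.11 ± 0.30, adjusted p 0.811 for repopulating microglia against bone-marrow macrophages). Between repopulating and wild-type microglia the log2 differences were 0.25 ± 0.24 for Hspd1 (adjusted p 0.539) and 0.88 ± 0.34 for Hspe1 (adjusted p 0.14). Without repopulating replicate 3 these became 0.51 (adjusted p 0.00735) and 1.30 (adjusted p 9.66e-06).

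Among 16 other genes of mitochondrial protein folding and quality control, 5 were higher and 2 lower in bone-marrow macrophages than in wild type, against 21.3% and 22.2% of all tested genes. Lonp1, a protease of the mitochondrial matrix, read 127.2 and 160.6 normalised counts in wild-type, 239.0, 261.2 and 323.7 in repopulating and 296.1, 297.0 and 315.7 in bone-marrow libraries. It was higher than wild type in bone-marrow macrophages (log2 1.08 ± 0.18 SE, adjusted p 0.00171) and in repopulating microglia (log2 0.93 ± 0.18 SE, adjusted p 0.0187), the 1 call of the list in that comparison, lost without either wild-type library (0.0672 and 0.183). Trap1, the Hsp90 of mitochondria, was higher in bone-marrow macrophages than in wild type (log2 0.63 ± 0.13 SE, adjusted p 0.00468) and lower in repopulating microglia than in bone-marrow macrophages (log2 -0.39 ± 0.12 SE, adjusted p 0.0314). Atf5, a factor of the mitochondrial stress response, passed the same 2 tests in the same directions (log2 1.03 ± 0.20 SE, adjusted p 0.00373 and -0.66 ± 0.18 SE, adjusted p 0.0234). Against bone-marrow macrophages, the call of Trap1 was lost without bone-marrow replicate 1 or 3, either wild-type library or repopulating replicate 1 or 2 (0.0524 to 0.12), and that of Atf5 without bone-marrow replicate 1 or 3 or repopulating replicate 1 (0.0663 to 0.0977).

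Hspb3, a small heat shock protein gene otherwise known from muscle, had the largest fitted log2 difference of the 61 tested members. It read 149 and 123 normalised counts in wild-type and 82.2, 91.5 and 97.9 in repopulating microglia, and 1.137, 1.061 and 0 in bone-marrow macrophages. All 5 microglial libraries held the transcript, and the 3 bone-marrow libraries held 3 reads in all, against 260 in the wild-type and 234 in the repopulating libraries. Per normalised depth this is a ratio of 173 (95% interval 58.6 to 845) for wild type over bone-marrow macrophages and 115 (38.8 to 561) for repopulating microglia over bone-marrow macrophages, intervals that cover counting error only.

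Both differences of Hspb3 passed under every alternative (log2 -6.38 ± 0.39 SE, adjusted p 1.64e-05 for bone-marrow macrophages against wild type and 5.80 ± 0.35 SE, adjusted p 1.79e-05 for repopulating microglia against bone-marrow macrophages). The fitted sizes depend on the number added before taking logs and ranged from -7.45 to -3.76 and from 3.23 to 6.86. Repopulating libraries lay below wild-type libraries without overlap, but the difference did not pass, and no fold is given for it. Microglia markers moved in the same direction, all 13 of them lower in bone-marrow macrophages than in wild type, where 22.2% of all tested genes were lower. Other lists did so as well: 11 of 12 tested neutrophil markers and 7 of 9 endothelial and pericyte markers were lower there and 0 higher. Monocyte and recruited macrophage markers were split, with 6 higher and 2 lower. The part of any of these cell types in the Hspb3 values was not tested.

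Hspb3 spans chr13:113662896-113663676 on the minus strand. Its 250 bases before the RefSeq start (chr13:113663677-113663926, GRCm38.p6, minus strand) are shown as the upstream sequence of the member that differs most, with the 2-unit heat shock element GAANNTTC in capitals at -224 to -217.
Hspb3: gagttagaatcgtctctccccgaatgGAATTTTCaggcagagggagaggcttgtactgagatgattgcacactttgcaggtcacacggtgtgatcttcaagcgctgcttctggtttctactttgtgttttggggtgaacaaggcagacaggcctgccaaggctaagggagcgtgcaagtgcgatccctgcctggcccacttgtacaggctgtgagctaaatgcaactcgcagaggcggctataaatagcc

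The other small heat shock protein genes were near the limit of detection. Hspb1 (chr5:135887919-135889563), the stress-inducible Hsp27, read 11.8 and 24.4 normalised counts in wild-type, 7.56, 5.90 and 8.06 in repopulating and 2.27, 1.06 and 0 in bone-marrow libraries, from 35, 19 and 5 reads in all. The 3 groups did not overlap. Hspb1 was lower in bone-marrow macrophages than in wild type (log2 -3.25 ± 0.64 SE, adjusted p 0.00394) in the alternatives that tested it, which do not include those without a wild-type library. It was higher in repopulating microglia than in bone-marrow macrophages (log2 2.103 ± 0.57 SE, adjusted p 0.0228), a call lost without bone-marrow replicate 2 or 3 or repopulating replicate 1 (adjusted p 0.0571 to 0.0724). Against wild type the repopulating value was -1.15 ± 0.64 (adjusted p 0.285). Endothelial and pericyte markers, given above, were also highest in wild-type and lowest in bone-marrow libraries. Of these 9 genes 7 were lower in bone-marrow macrophages than in wild type (22.2% of all tested genes). In repopulating microglia relative to bone-marrow macrophages 8 were higher (16.0% of all tested genes). Microglia markers went the same way, with 13 of 13 lower and 12 of 13 higher. Of 12 neutrophil markers 11 were lower in the first comparison, and 5 were higher and 1 lower in the second. The part of these cell types in the Hspb1 values was not tested.

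Hspb6, also a small heat shock protein, read 16.0 and 26.4 normalised counts in wild-type, 23.6, 14.8 and 12.7 in repopulating and 30.7, 35.0 and 37.0 in bone-marrow libraries, and was 2.02-fold lower in repopulating microglia than in bone-marrow macrophages (log2 -1.01 ± 0.32 SE, adjusted p 0.0426). The call was lost without any bone-marrow library or repopulating replicate 2 or 3 (adjusted p 0.0511 to 0.134). Hspb11, which despite its name is part of the transport machinery of cilia, read 47.0 and 23.4, then 79.3, 105 and 23.0, then 81.3, 108 and 71.4 and passed in no comparison. Without repopulating replicate 3 its repopulating libraries passed as higher than wild type (adjusted p 0.00613). Hspbp1 (226 to 354 normalised counts over the 8 libraries) and Hspbap1 (36.9 to 76.3) passed in none.

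Of the remaining Hsp70 relatives, Hspa12a and Hspa12b are distant members without a typical substrate-binding domain. Hspa12a (chr19:58795750-58943654) read 25.6 and 31.5 normalised counts in wild-type, 7.56, 7.38 and 8.06 in repopulating and 2.27, 0 and 1.76 in bone-marrow libraries, 3 groups without overlap. It was lower in bone-marrow macrophages than in wild type (log2 -3.82 ± 0.59 SE, adjusted p 0.0012) in every alternative that tested it and higher in repopulating microglia than in bone-marrow macrophages (log2 2.06 ± 0.53 SE, adjusted p 0.018), a call lost without repopulating replicate 1 (adjusted p 0.051). The bone-marrow libraries held 6 reads of Hspa12a in all, so these sizes depend on the number added before taking logs. Hspa12b, best known from endothelial cells, read 7.48 and 17.3, then 0, 4.43 and 10.4, then 2.84, 2.12 and 0.882, with no comparison past the threshold. Hspa14, an Hsp70 of the ribosome, read 315 to 457 normalised counts and Hspa2, known from the testis, 8.55 to 25.1 over the 8 libraries, and neither passed.

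The Dnajb genes, whose products mostly work with cytosolic Hsp70, gave 5 lower and 1 higher of 9 tested in bone-marrow macrophages relative to wild type, with a median log2 difference of -1.12 over the 9. Of all tested genes, 22.2% were lower and 21.3% higher. The 6 Dnajb calls held under every scaling tried. In repopulating microglia relative to bone-marrow macrophages 4 were higher and 1 lower (16.0% and 14.9% of all genes). Dnajb2 (chr1:75236406-75245692), a J-domain protein with ubiquitin-binding motifs, read 144 and 173 normalised counts in wild-type, 79.3, 84.1 and 96.8 in repopulating and 58.0, 55.1 and 56.4 in bone-marrow libraries. The groups stood in this order without overlap, and Dnajb2 was the 1 member lower in repopulating than in wild-type microglia (1.82-fold, log2 -0.86 ± 0.19 SE, adjusted p 0.0276). That call was lost without any 1 library other than repopulating replicate 3 (adjusted p 0.0506 to 0.187). Bone-marrow macrophages were 2.76-fold below wild type under every alternative (log2 -1.47 ± 0.19 SE, adjusted p 0.000453), and repopulating microglia were 1.52-fold above bone-marrow macrophages (log2 0.60 ± 0.17 SE, adjusted p 0.0252), a call lost without any bone-marrow library (0.0747 to 0.0795) or with libraries scaled to equal totals.

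Dnajb4 (chr3:152178511-152210302), a relative of Dnajb1, read 250.03 and 324 normalised counts in wild-type, 236, 162 and 166 in repopulating and 77.9, 103 and 81.1 in bone-marrow libraries. It was 3.26-fold lower in bone-marrow macrophages than in wild type (log2 -1.71 ± 0.23 SE, adjusted p 0.0006) and 2.13-fold higher in repopulating microglia than in bone-marrow macrophages (log2 1.09 ± 0.21 SE, adjusted p 0.0043), under every alternative. Dnaja4 (chr9:54698873-54716315), a cytosolic J-domain protein linked to cholesterol metabolism, was also low in bone-marrow libraries, with 94.0 and 125 in wild-type, 94.4, 85.6 and 93.3 in repopulating and 24.4, 19.1 and 37.0 in bone-marrow libraries. Its wild-type and repopulating groups overlapped and its bone-marrow group lay below both (log2 -2.03 ± 0.29 SE, adjusted p 0.000842 against wild type, and 1.78 ± 0.26 SE, adjusted p 0.00117 for repopulating microglia against bone-marrow macrophages), again under every alternative.

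Dnajb5, another relative of Dnajb1, read 159 and 156 normalised counts in wild-type, 103, 85.6 and 154 in repopulating and 74.4, 87.0 and 57.3 in bone-marrow libraries, 2.17-fold lower in the last than in wild type (log2 -1.12 ± 0.28 SE, adjusted p 0.0118). Removal of either wild-type library ended that call (adjusted p 0.0629 and 0.0716). Dnajb14 (chr3:137867675-137916557), anchored in the endoplasmic reticulum membrane, was the Dnajb gene with the opposite order. It read 69.5 and 89.5 in wild-type, 176, 241 and 93.3 in repopulating and 299, 353 and 299 in bone-marrow libraries, without overlap of the groups. It was 3.97-fold higher in bone-marrow macrophages than in wild type under every alternative (log2 1.99 ± 0.35 SE, adjusted p 0.00217) and 1.99-fold lower in repopulating microglia than in bone-marrow macrophages (log2 -0.996 ± 0.31 SE, adjusted p 0.0386). Removal of any bone-marrow or wild-type library or of repopulating replicate 1 ended the second call (0.0574 to 0.122). Dnajb6 and Dnajb12 passed in no comparison, and neither did Dnaja2 and Dnaja3.

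Of 24 tested Dnajc genes, the largest and most mixed class, 6 were higher and 6 lower in bone-marrow macrophages than in wild type (43.5% of all tested genes passed), and 2 higher and 2 lower in repopulating microglia than in bone-marrow macrophages (30.9% passed). Dnajc9 (chr14:20384638-20388910), a J-domain protein that also chaperones histones, read 127 and 129 normalised counts in wild-type, 131, 127 and 128 in repopulating and 334, 301 and 339 in bone-marrow libraries. All 5 microglial libraries lay between 127 and 131, and bone-marrow macrophages stood apart (log2 1.33 ± 0.14 SE, adjusted p 0.000186 against wild type, and -1.33 ± 0.13 SE, adjusted p 0.000134 for repopulating microglia against bone-marrow macrophages), under every alternative. Dnajc2 (chr5:21757267-21785251), a J-domain protein of the ribosome, read 91.9 and 73.2, then 153, 121 and 200.4, then 243, 244 and 257 in the same order. Its 3 groups did not overlap, and all 3 comparisons passed (log2 1.58 ± 0.22 SE, adjusted p 0.000765 for bone-marrow macrophages against wild type under every alternative, 0.91 ± 0.22 SE, adjusted p 0.0419 for repopulating against wild type, and -0.68 ± 0.20 SE, adjusted p 0.0326 for repopulating microglia against bone-marrow macrophages). The call of Dnajc2 against wild type was lost without any bone-marrow or wild-type library or repopulating replicate 1 (0.0822 to 0.231), and that against bone-marrow macrophages without any bone-marrow library or repopulating replicate 1 or 2 (0.0747 to 0.105).

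Dnajc13 (chr9:104151282-104262930), an endosomal protein that recruits Hspa8 to membranes, had the smallest adjusted p of the family between repopulating and wild-type microglia. It read 283 and 408 normalised counts in wild-type, 762, 810.3 and 742 in repopulating and 915, 809 and 818 in bone-marrow libraries. Both wild-type libraries lay well below the other 6, which overlapped. Repopulating microglia were 2.26-fold above wild type (log2 1.18 ± 0.17 SE, adjusted p 0.00664). This call was lost without wild-type replicate 1 (log2 0.92, adjusted p 0.0725) and when only the 2 groups were fitted (adjusted p 0.0645). Bone-marrow macrophages were 2.49-fold above wild type under every alternative (log2 1.31 ± 0.17 SE, adjusted p 0.000443).

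Dnajc27 (chr12:4082583-4110606), a small GTPase that carries a J domain, read 63.0 and 61.0 normalised counts in wild-type, 131, 95.9 and 115 in repopulating and 81.8, 99.7 and 87.3 in bone-marrow libraries. It was 1.81-fold higher in repopulating than in wild-type microglia (log2 0.86 ± 0.20 SE, adjusted p 0.0361), a call lost without any bone-marrow or wild-type library or repopulating replicate 1 (adjusted p 0.0652 to 0.203). Dnajc16 (chr4:141760189-141790931), a membrane protein of the endoplasmic reticulum, read 399 and 359.9, then 442, 384 and 503, then 227, 212 and 187, with both microglial groups above the bone-marrow group. Dnajc16 was 1.82-fold lower in bone-marrow macrophages than in wild type (log2 -0.86 ± 0.16 SE, adjusted p 0.0034) and 2.11-fold higher in repopulating microglia than in bone-marrow macrophages (log2 1.08 ± 0.15 SE, adjusted p 0.000809), under every alternative.

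Dnajc28 (chr16:91614254-91619026) read 59.8 and 83.4 normalised counts in wild-type, 36.8, 25.1 and 85.2 in repopulating and 9.09, 14.8 and 10.6 in bone-marrow libraries. The bone-marrow group lay below both microglial groups, which overlapped. It was 5.83-fold lower than wild type under every alternative (log2 -2.54 ± 0.49 SE, adjusted p 0.00342), and repopulating microglia were 3.58-fold above it (log2 1.84 ± 0.43 SE, adjusted p 0.0123), a call lost without bone-marrow replicate 1 (adjusted p 0.0514). Dnajc21 (chr15:10446756-10470516), which helps mature ribosomal subunits, read 35.3 and 43.7, then 57.6, 56.1 and 86.4, then 87.5, 95.5 and 92.6 and was 2.30-fold higher in bone-marrow macrophages than in wild type (log2 1.20 ± 0.25 SE, adjusted p 0.00477), under every alternative.

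The other calls of this class were smaller and, in bone-marrow macrophages against wild type, mostly not firm. Dnajc18, 1.60-fold lower at 161 to 183 against 272 and 285 normalised counts (log2 -0.68 ± 0.15 SE, adjusted p 0.00759), lost its call without wild-type replicate 2 (adjusted p 0.0563). Dnajc30, a mitochondrial protein, was 1.67-fold lower at 101 to 129 against 175 and 192 (log2 -0.74 ± 0.20 SE, adjusted p 0.0169) and lost it without bone-marrow replicate 1 or 2 or either wild-type library (0.0565 to 0.109). Dnajc12, Dnajc24 (a protein of diphthamide synthesis, the modification that diphtheria toxin targets) and Dnajc17 (a splicing-linked protein) lost theirs without any bone-marrow or wild-type library or repopulating replicate 1. Their log2 differences were -0.68 ± 0.23 (adjusted p 0.0409, and 0.0537 to 0.24 without such a library), -0.58 ± 0.20 (0.0451, and 0.055 to 0.288) and 0.74 ± 0.25 (0.0403, and 0.0556 to 0.214). Dnajc24 read 127 and 167 normalised counts in wild-type, 115 to 132 in repopulating and 83.8 to 111 in bone-marrow libraries, Dnajc12 67.3 and 86.4, 55.7 to 58.7 and 38.8 to 54.1, and Dnajc17 34.6 and 43.8, 48.7 to 69.1 and 57.3 to 77.6.

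**Figure D5:**
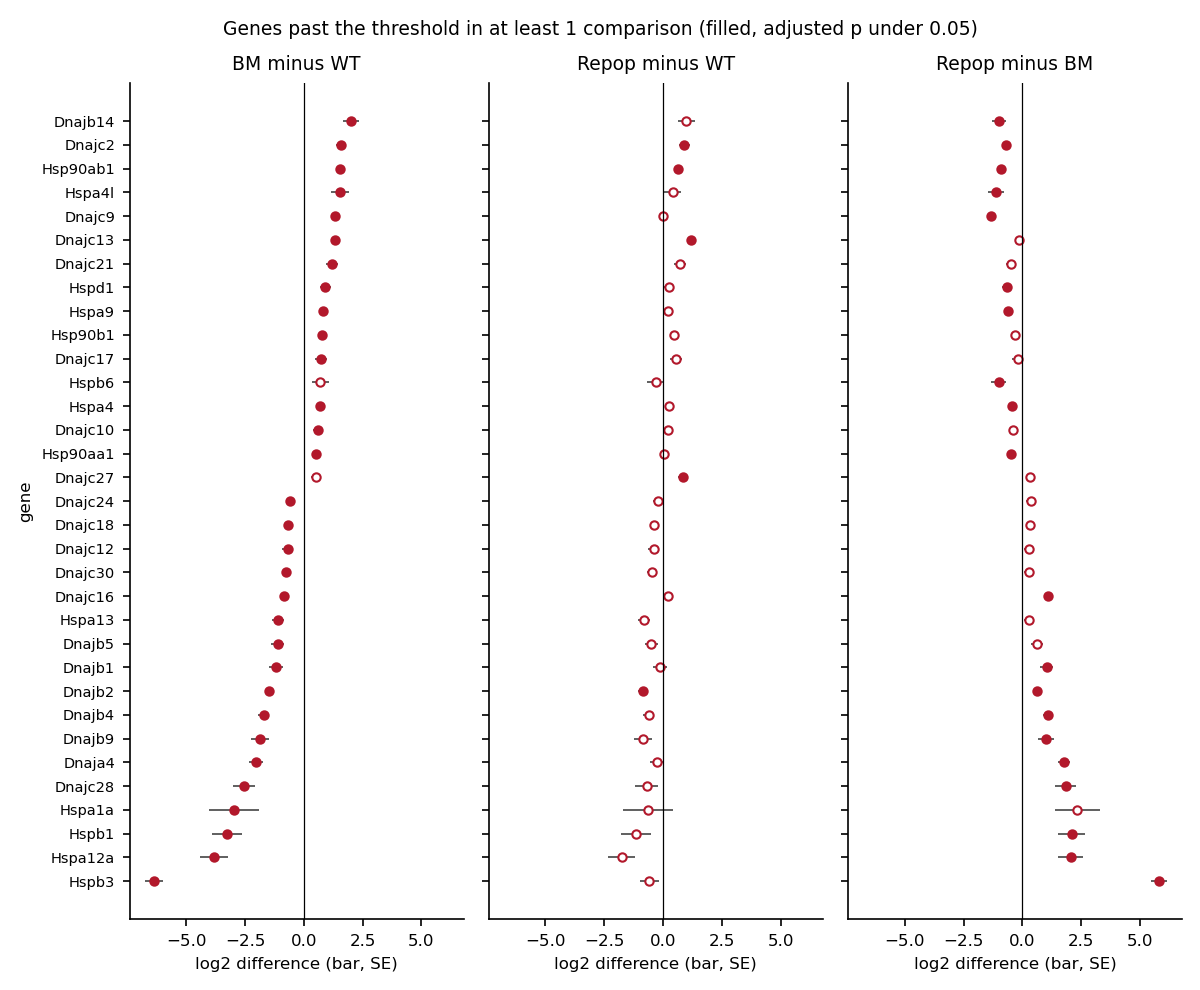
Log2 differences (points) with SE (bars) in the 3 comparisons for the 33 genes that passed in at least 1 of them (filled, adjusted p under 0.05). Hspb3 lies at -6.38 and 5.80 in the comparisons that include bone-marrow macrophages, and the comparison of repopulating with wild-type microglia has 5 filled points, Dnajc13 at 1.18 being the farthest to the right.

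Of 28 tested co-chaperones of Hsp70 and Hsp90, 8 were higher and 2 lower in bone-marrow macrophages than in wild type, with a median log2 difference of 0.25. Among all tested genes 21.3% were higher and 22.2% lower. Those with the smallest adjusted p were Cdc37, which brings kinases to Hsp90 (log2 0.85 ± 0.14 SE, adjusted p 0.002), Ube4b, a ubiquitin ligase (1.09 ± 0.19 SE, adjusted p 0.0024), Stip1 and the Hsp70 exchange factor Bag1 (0.80 ± 0.16 SE, adjusted p 0.00433). Stip1, which bridges Hsp70 and Hsp90, read 227.6 and 345.7 normalised counts in wild-type, 306.0, 339.5 and 362.8 in repopulating and 625.1, 505.9 and 644.6 in bone-marrow libraries. It was higher in bone-marrow macrophages than in wild type (log2 1.07 ± 0.20 SE, adjusted p 0.00331) and lower in repopulating microglia than in bone-marrow macrophages (log2 -0.81 ± 0.18 SE, adjusted p 0.00963), where 4 of the list were lower and 0 higher (14.9% and 16.0% of all genes). In repopulating relative to wild-type microglia 3 were higher and 0 lower, beside 4.86% and 3.75% of all genes: Cdc37 (log2 0.78 ± 0.14 SE, adjusted p 0.0164), Bag1 (0.87 ± 0.16 SE, adjusted p 0.0163) and Fkbp5, a co-chaperone of steroid receptors (0.85 ± 0.14 SE, adjusted p 0.0105). Fkbp5 read 363.3 and 398.6 normalised counts in wild-type against 779.2, 625.8 and 663.4 in repopulating libraries, without overlap. Each of these 3 calls was lost when either wild-type library was left out, and that of Bag1 also without repopulating replicate 1 (adjusted p 0.0524 to 0.149 in these cases).

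The cytosolic chaperonin TRiC, which folds actin and tubulin, and prefoldin, which delivers to it, had 14 tested genes. Between repopulating and wild-type microglia limma, edgeR and DESeq2 called 8.61%, 8.49% and 14.2% of all tested genes, and each called 0 of these 14. At an unadjusted p under 0.05 limma had 3014 of all 11415 tested genes and 2 of these 14. In bone-marrow macrophages 4 were higher than in wild type and 0 lower, where 21.3% and 22.2% of all tested genes were: the prefoldin subunit Pfdn1 (log2 0.94 ± 0.18 SE, adjusted p 0.00367), the prefoldin relative Uri1 (0.60 ± 0.16 SE, adjusted p 0.0149), and the TRiC subunits Cct2 and Tcp1 (0.83 ± 0.24 SE, adjusted p 0.0208). Cct2 stood at 2760, 2606 and 2618 against 1666 and 1508 normalised counts (log2 0.75 ± 0.21 SE, adjusted p 0.0199). The call of Cct2 was lost without any bone-marrow or wild-type library (0.0504 to 0.12), that of Tcp1 without bone-marrow replicate 1 or 2 or either wild-type library (0.055 to 0.109), and that of Uri1 without bone-marrow replicate 2 or wild-type replicate 1 (0.0559 to 0.108). Repopulating replicate 3 read 1515 for Cct2, within the wild-type range, against 2331 and 2570 in replicates 1 and 2. In repopulating microglia relative to bone-marrow macrophages 1 gene was higher, Pfdn5, and 3 were lower (16.0% and 14.9% of all genes), and the call of Pfdn5 was lost without any library other than repopulating replicate 3 (0.0643 to 0.152).

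Members that passed in none of the 3 comparisons numbered 28 of the 61. Besides those already described they were Dnajc1, Dnajc4, Dnajc5, Dnajc7, Dnajc8, Dnajc11, Dnajc14, Dnajc15, Dnajc19 and Dnajc25. Dnajc5, the cysteine string protein of vesicles, read 804 to 1209 normalised counts and Dnajc7, which binds both Hsp70 and Hsp90, 553 to 809 over the 8 libraries. Exons of Dnajc7 overlap those of the antisense gene Cnp, and the kit does not mark strand, so reads there cannot be told apart. Overlapping antisense exons occur in 26 of the 74 genes, Hspd1 and Hspe1, Dnaja1, Dnaja4, Dnajb14 and Hspa1a among them.

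The 13 members below the filter were Dnajb3, Dnajb7, Dnajb8, Dnajb13, Dnajc5b, Dnajc5g, Dnajc6, Dnajc22, Hspa1l, Hspb2, Hspb7, Hspb8 and Hspb9. Dnajb8, Dnajc5b and Dnajc5g were at 0 in every library, and Hspa1l had the highest single value of the rest, 11.5 normalised counts. Hspb8, a small heat shock protein of selective autophagy, had 11 reads in wild-type, 10 in repopulating and 3 in bone-marrow libraries. Hspb2 shares exons with antisense Cryab, and its 38 reads may come from either gene.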

How the data were processed

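Per the submitters' processing notes, the mm10 genome was used with DESeq 1.14.0, HTSeq, Bowtie2 2.1.0.0 and TopHat2 2.0.10. The annotation, the strand setting and the tools' roles were not given in the sources used here. What the authors deposited is a signal, normalised counts: each library's gene counts over its size factor, from which whole reads could be recovered. The tested genes (11415, with 99.9% of reads) reached 10 normalised counts in 2 or more libraries. The test, on log2(value + 1), was that of limma 3.58.1 (R 4.3.3) with trended variances, 1 fit of all 8 libraries and Benjamini-Hochberg adjustment over all genes tested (two-sided, threshold 0.05). Fold changes are on that scale, which understates low genes. Alternatives were other pseudocounts, filters, scalings, variance models, edgeR 4.0.16 and DESeq2 1.42.0 on the recovered reads, a replicate block and removal of each library. The scripts were tested on simulated data.

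The members and lists were chosen with earlier results of these data known. Fold, error and adjusted p were given for every member called in a comparison and, in each comparison, for a panel of 15 (Hspa1a, Hspa1b, Hspa5, Hspa8, Hsp90aa1, Hsp90ab1, Hsp90b1, Hspd1, Hspe1, Hsph1, Hspb1, Dnaja1, Dnajb1, Dnajb9 and Dnajc3), other members were named with levels only, and of each other list only genes among the 4 with the smallest adjusted p below the threshold were named with a fold. Gene positions are from GENCODE vM21 on GRCm38, the build mm10. Same-numbered libraries did not deviate together (correlations -0.24 to 0.24), so the numbers were not used to pair them. Replicate pairs differed by more than counting noise.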

Additional observations from a re-analysis of the deposited data

How the results depend on the processing

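Between repopulating and wild-type microglia the 5 calls became 2 with no filter on low values, 3 with libraries scaled to equal totals, 0 with only the 2 groups in the fit (10 at an unadjusted p under 0.05), 3 with no variance trend, 18 with library weights and 10 with DESeq2. Over all genes tested, the shares called were 5.49%, 10.2%, 0.683%, 6.96%, 24.6% and 14.2% in the same order, against 8.61% in the main test. The count of calls without 1 library ranged from 0 to 18 in this comparison, from 18 to 44 for bone-marrow macrophages against wild type and from 9 to 31 for repopulating microglia against bone-marrow macrophages. The last reached 36 with library weights, where 56.1% of all tested genes were called. Each of the 3 ranges had its highest count without repopulating replicate 3, where 26.2%, 61.8% and 47.1% of all tested genes were called. With the replicate number as a block the 3 comparisons gave 2, 31 and 19 calls, beside 6.42%, 42.1% and 31.2% of all tested genes. Log2 differences of the named members kept their sign except for members that had passed no test in that comparison. For the called genes named from the other lists the same alternatives were run after the data had been seen, and none changed sign. Repopulating against wild-type microglia gave -0.0258 for Dnaja1 and -0.0702 for Hsp90aa1 with equal totals, -0.0336 for Hsp90aa1 and -0.11 for Hspa5 with quantile normalisation, 0.25 for Dnajb1, 0.82 for Hspa1a and 0.88 for Hspa1b with library weights, and for Hspa1b 0.0839 with edgeR and 0.0679 with DESeq2. Bone-marrow macrophages against wild type gave for Hsph1 0.13 with equal totals, 0.0508 with TMM, 0.26 with the replicate block and 0.15 with library weights. Repopulating microglia against bone-marrow macrophages gave -0.14 and -0.0282 for Hspe1 with equal totals and quantile normalisation. Without 1 library the first comparison ranged from -0.25 to 0.42 for Dnaja1, -0.48 to 0.20 for Dnajb1, -0.0875 to 0.0537 for Dnajc3, -0.13 to 0.21 for Hsp90aa1, -1.68 to 0.21 for Hspa1a, -2.02 to 0.0529 for Hspa1b and -0.37 to 0.91 for Hsph1. The second ranged from -0.0067 to 0.13 for Dnajc3 and -0.66 to 0.62 for Hsph1, and the last from -0.35 to 0.0107 for Hspa5, -0.11 to 0.53 for Hspe1 and -0.0352 to 0.84 for Hsph1. The cause of these changes was not tested. Hspa12a and Hspb1 gave no value without either wild-type library or under the filter at 50 normalised counts, which they did not pass. Hspb1, Hspa12a and Hspb3 rest on few reads in bone-marrow macrophages, so their fitted sizes are limited by depth.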
